A study of Mus musculus with 3 samples.

Results

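Interferon-stimulated genes are the genes that a cell switches on when it senses interferon, and 46 of them were followed here in regulatory T cells (Tregs), the Foxp3-dependent CD4 T cells that hold immune responses in check. The 46 were picked by symbol from the 55536 genes of the deposited gene tables, and all 46 had a mean count of at least 10. They fall into 24 genes of the type I type (Isg15, the Ifit, Mx and Oas genes and their kin), 10 interferon gamma type GTPases (the Irg and Gbp genes) and 12 mixed members that answer to several interferons. The cells were mouse primary Tregs that had been through inflammation, taken at 12 weeks and derived from activated Tregs, and their polyadenylated RNA was sequenced. All samples form 1 group: 3 libraries of 1 biosample from 1 donor, labelled technical replicates 1 to 3 of biological replicate 1. Genotype, strain, sex, the inflammatory treatment and the sorting gate are not given in the labels, and no label ties the libraries to different mice. Every SD below is therefore the spread between these 3 libraries, which may be technical, and no value speaks of inflamed against resting cells.

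Type I interferons (Ifnb1 and the Ifna family) bind the receptor chains Ifnar1 and Ifnar2, whose kinases are Jak1 and Tyk2. The signal leads to a complex that contains Irf9 and binds the interferon-stimulated response element (ISRE) in promoters. Interferon gamma binds Ifngr1 and Ifngr2, and its signal acts through the gamma-activated site (GAS), while the induced factor Irf1 binds ISRE-like letters. The products block viral RNA and proteins, or, in the case of the Irg and Gbp GTPases, attack the vacuoles in which bacteria and parasites live. In Tregs both interferon classes are known to act, interferon gamma as a driver of the state in which Tregs control inflammation led by interferon gamma-producing T cells.

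The sequences through which these factors are known to act can be read in the promoters of the members, so a few are shown before the levels. RefSeq promoter windows on build GRCm38.p6, 300 bases long from 250 before to 50 after an annotated start, were held for 32 members in 37 windows. No window was held for Usp18, Mx1, Mx2, Oas2, Dhx58, Zbp1, Rtp4, Ifi27l2a, Iigp1, Gbp6, Ly6a, Ly6e, Parp9 and Parp14. Capitals mark the ISRE core, GAAA followed by any 2 bases and GAAA again, on either strand (so that TTTC stands at both ends of a match on the other strand), and the GAS letters, TTC, any 3 bases and GAA, which read alike on both strands. The whole windows of Isg15 and Igtp are given first. That of Isg15, the ubiquitin-like modifier that names the class, lies at chr4:156200769-156201068 on the minus strand. That of Igtp, an Irg GTPase, lies at chr11:58199306-58199605 on the plus strand. They were picked as examples of a dense ISRE and of a GAS paired with an ISRE, and do not stand for every gene of their classes.
Isg15: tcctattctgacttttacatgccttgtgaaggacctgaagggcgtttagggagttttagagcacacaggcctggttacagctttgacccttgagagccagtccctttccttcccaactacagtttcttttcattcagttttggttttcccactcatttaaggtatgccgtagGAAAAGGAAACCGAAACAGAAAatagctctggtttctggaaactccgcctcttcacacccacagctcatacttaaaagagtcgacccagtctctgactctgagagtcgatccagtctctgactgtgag
Igtp: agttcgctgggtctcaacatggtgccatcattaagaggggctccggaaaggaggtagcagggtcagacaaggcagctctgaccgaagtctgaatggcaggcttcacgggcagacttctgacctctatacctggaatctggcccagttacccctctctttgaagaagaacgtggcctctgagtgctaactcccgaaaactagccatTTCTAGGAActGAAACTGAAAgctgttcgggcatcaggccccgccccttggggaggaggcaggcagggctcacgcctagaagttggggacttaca

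The Isg15 run of capitals holds 3 overlapping ISRE cores, between 78 and 57 bases before the start. Each overlapping core was counted as a match, and in Bst2 and Ifitm3 a GAS match overlaps an ISRE core. Further sites are shown with 10 bases on either side to compare neighbours in the genome. The first pair comes from Ifit3 (chr19:34583363-34583392, plus strand) and Ifit3b (chr19:34607759-34607788, plus strand), genes of an RNA-binding antiviral family that differ in level below, and their sites are letter for letter alike.
Ifit3: cagtggtaagTTTCACTTTCctcttctggt
Ifit3b: cagtggtaagTTTCACTTTCctcttctggt
The second pair comes from Igtp (chr11:58199512-58199541, plus strand) and its neighbour Irgm2 (chr11:58214903-58214932, plus strand), both of which also carry a GAS match just before the ISRE core.
Igtp: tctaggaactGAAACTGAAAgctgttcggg
Irgm2: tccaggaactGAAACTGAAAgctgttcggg
The set is completed by 3 Gbp or Irg sites and 3 type I type sites: Irgm1 (chr11:48871425-48871454, minus strand), Gbp2 (chr3:142620594-142620623, plus strand), Gbp7 (chr3:142530273-142530302, plus strand), Ifit1 (chr19:34640794-34640823, plus strand), Oas1a (chr5:120907520-120907549, minus strand) and Rsad2 (chr12:26456553-26456582, minus strand). They show that the same core stands in genes of both classes and in either orientation.
Irgm1: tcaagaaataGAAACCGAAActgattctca
Gbp2: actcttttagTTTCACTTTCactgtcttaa
Gbp7: gtgtgtgcagTTTCAGTTTCagttctccat
Ifit1: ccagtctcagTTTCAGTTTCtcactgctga
Oas1a: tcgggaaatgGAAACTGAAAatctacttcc
Rsad2: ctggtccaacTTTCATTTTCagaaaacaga

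An ISRE core on either strand was found in 21 of the 32 members with a window (65.6%), against 1079 of 27025 genes in the RefSeq table (3.99%). By class it stood in 10 of 16 type I type genes, 7 of 8 GTPases and 4 of 8 mixed members. The one GTPase with a window but no core was Ifi47, and Gbp3 had the core in 1 of its 2 windows. GAS letters were found in 11 of the 32 members (34.4%), against 9.55% of genes in the table: 3 of 16 type I type genes, 4 of 8 GTPases and 4 of 8 mixed members. With the stricter GAS form (TTCC, any base, GGAA) the count was 4 members (12.5%), namely Ifit2, Irgm2, Gbp7 and Bst2, against 1.35% of genes. Motif matches are counted on windows of different members that can share sequence, such as Ifit3 with Ifit3b, and a match is a description of letters, not of binding. Members with and without an ISRE core in the window had median mean levels of 44.8 and 55.4 TPM.

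**Figure D1:**
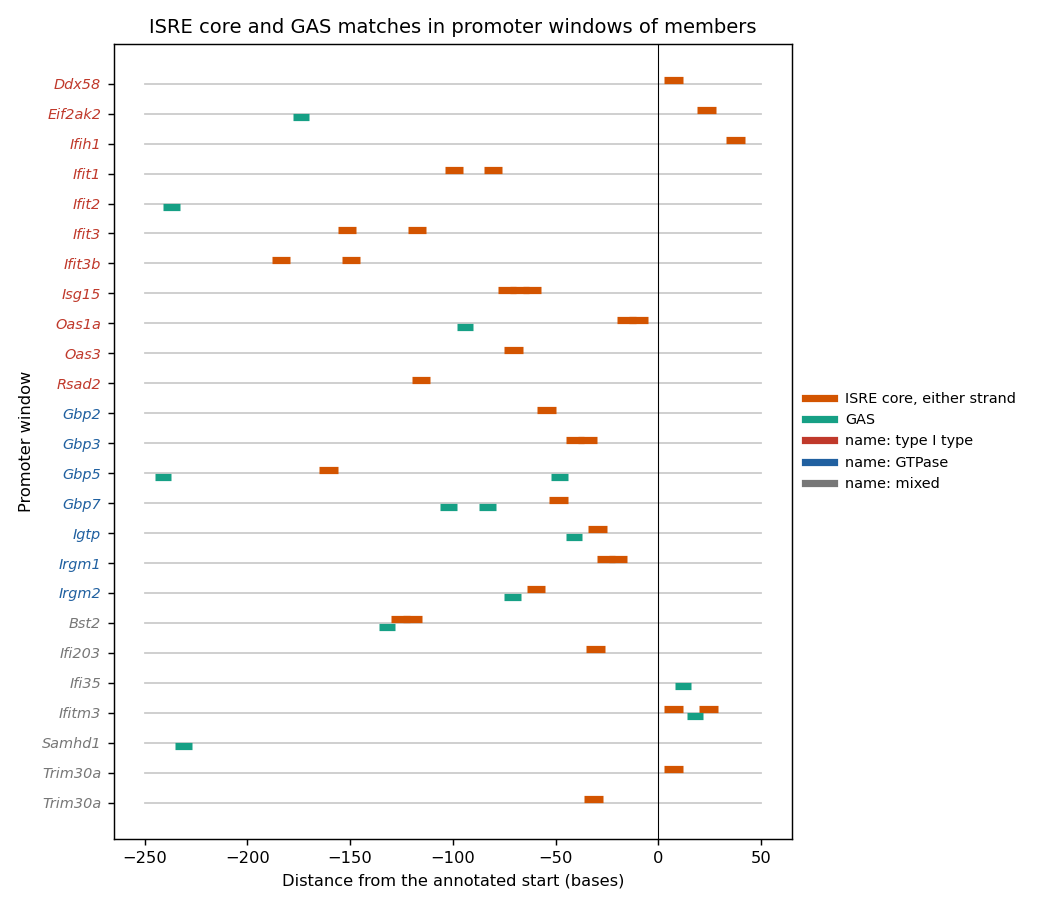
Position of ISRE core matches (orange) and GAS matches (green) in the promoter windows of members that hold at least 1, in bases from the annotated start (horizontal axis), 1 line per window; names are coloured by class. ISRE cores of the GTPases other than Gbp5 lie within 64 bases before the start, and the 3 overlapping cores of Isg15 form a block between 78 and 57 bases before it.

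Levels are given as TPM, a length-corrected transcript abundance that shares 1 total within each library. The libraries held 35592206, 31611422 and 37728241 expected counts in genes, in the order 1 to 3. Library 3 stood apart through salivary gland secretory transcripts: 5 markers summed to 4.56, 10.9 and 54669 TPM in libraries 1 to 3, with Bpifa2 alone at 39890 TPM in library 3. Because the total is shared, these transcripts take TPM from all others in library 3, so ratios between libraries are taken from counts under edgeR's TMM scaling. The cells carried the marks of Tregs: all 6 Treg markers were detected, and Foxp3 had 98.1, 98.4 and 96.5 TPM in libraries 1 to 3.

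Interferon-stimulated genes were broadly expressed in these Tregs. A TPM of 1 or more in each library was reached by 45 of the 46 members, against 23.2% of all genes and 47.6% of protein-coding genes, the exception being Mx2. A TPM of 100 or more in each library was reached by 14 of 46, against 7.68% of protein-coding genes, and 8 members had a mean under 10. The members took 0.940%, 0.813% and 0.756% of the gene counts of libraries 1 to 3, with 95% Wilson intervals of 0.937% to 0.944%, 0.810% to 0.816% and 0.753% to 0.759% that cover counting error only. The type I type genes took 0.154%, 0.110% and 0.0956% of counts in libraries 1 to 3, against 0.271%, 0.221% and 0.219% for the GTPases, and the mixed members took 0.516%, 0.482% and 0.442%. These shares are of unscaled totals, so the gland transcripts lower those of library 3, where Bpifa2 alone held 891348 of 37728241 counts. In bulk RNA, more cells with a transcript and more transcript per cell cannot be told apart.

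The GTPases stood above most type I type genes. The median level of the 24 type I type genes was 28.1, 20.2 and 16.3 TPM in libraries 1 to 3, against 157.2, 131.3 and 116.2 TPM for the 10 GTPases, and the mixed members lay at 131.5, 135.3 and 118.7 TPM. On the log2(TPM + 1) scale the type I type median minus the GTPase median was -2.44, -2.69 and -2.76 in libraries 1 to 3, a mean of -2.63 ± 0.16 (SD, n = 3), and it had the same sign in every library. All 10 GTPases had a mean level above the type I type median. The classes still overlapped: 7 of 24 type I type genes exceeded the lowest GTPase, Gbp5, and 2 of them, Ifi27l2a and Zbp1, exceeded the GTPase median. For scale, protein-coding genes detected in these libraries had a median of 31.4 TPM. The difference depends on how the classes are drawn, since adding the mixed members to the type I type list made it -1.55.

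**Figure D2:**
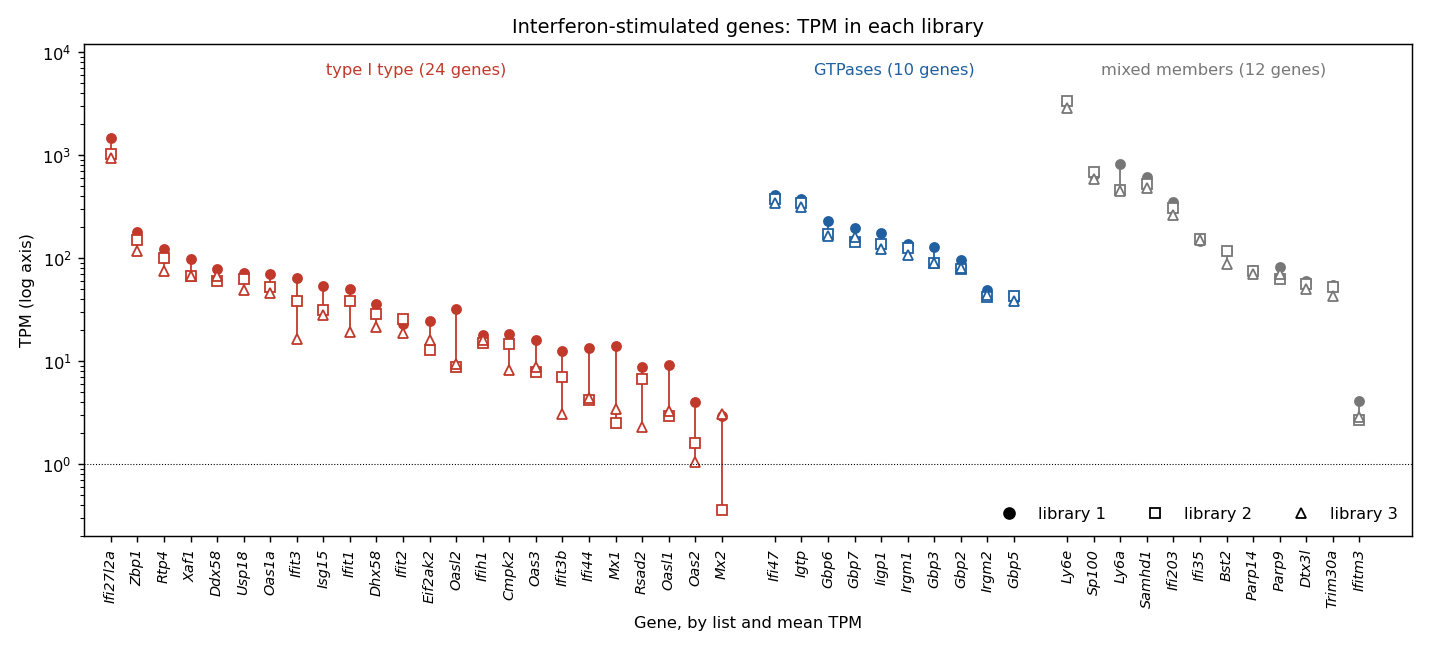
TPM of each member in library 1 (filled circle), library 2 (square) and library 3 (triangle) on a log axis, by class and ordered by mean level; the vertical line spans the libraries and the dotted line is a TPM of 1. GTPases (blue) sit between 38.4 and 407 TPM with short spans, while type I type genes (red) run from Ifi27l2a down to Mx2 with long spans at the lower end.

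Isg15 and its protease open the type I type genes. Isg15, whose product is linked to other proteins during infection, had 53.8, 31.5 and 28.2 TPM in libraries 1 to 3. Library 1 was high and libraries 2 and 3 lay close together, with a TMM-scaled ratio between the highest and the lowest library of 1.75 (chi-square test of scaled counts against counting noise, adjusted over all genes tested, p = 1.12e-27). Usp18, which removes Isg15 from its targets and damps the type I receptor, averaged 60.9 ± 11.2 TPM (SD, n = 3). Thus the remover stood above the modifier in all 3 libraries, with the lowest Usp18 value 49.1 TPM in library 3.

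The Ifit genes, whose products bind viral RNA that lacks the marks of host messenger RNA, lie side by side on chromosome 19 between 34550694 and 34650009 (mm10). Ifit3 had 64.3, 38.4 and 16.5 TPM in libraries 1 to 3. Ifit3b, its near copy, had 12.5, 7.03 and 3.05 TPM. Ifit1, the cap-binding member, had 49.8, 38.1 and 19.4 TPM. In all 3 genes library 3 was lowest and library 1 highest, and the TMM-scaled ratios between them were 3.56, 3.76 and 2.36 for Ifit3, Ifit3b and Ifit1. Ifit2, the fourth of the cluster, did not share this: it averaged 22.4 ± 3.35 TPM, was highest in library 2 and had a ratio of 1.25. Ifit3 and Ifit3b share sequence, since 51.2% of the 50-base windows of the Ifit3 transcript also occur in other genes, all in Ifit3b, so the split of reads between the pair is uncertain.

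The Mx genes encode dynamin-like GTPases that trap viral capsids. Mx1 had 14.0, 2.54 and 3.42 TPM in libraries 1 to 3, and Mx2 had 2.91, 0.36 and 3.05 TPM. The neighbours on chromosome 16 thus differed in pattern: Mx1 was high in library 1 alone, with a ratio of 5.57 (adjusted p = 4.14e-133, chi-square test), whereas Mx2 was low in library 2 alone, with 147, 16.4 and 131 expected counts and a ratio of 7.93 (adjusted p = 1.69e-18, chi-square test). Most Mx1 abundance was assigned by the authors to a transcript annotated for nonsense-mediated decay, Mx1-205, at 57.8%, 84.7% and 50.1% of the gene's TPM in libraries 1 to 3. In Mx2 a transcript annotated as a polymorphic pseudogene led in libraries 1 and 3, at 93.9% and 68.5%, and was listed at 0% in library 2, where few reads were present.

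The oligoadenylate synthetases make the messenger that turns on RNase L. Oas1a had 70.8, 52.2 and 45.95 TPM in libraries 1 to 3, with a ratio of 1.41. Oas2 had 4.04, 1.59 and 1.05 TPM, with a ratio of 3.18. Oas3 averaged 10.97 ± 4.55 TPM and was highest in library 1, with a ratio of 1.97. The 3 genes lie within chromosome 5 between 120730333 and 120907521 and their mean levels differed 25.3-fold, Oas1a being the highest and Oas2 the lowest. For Oas1a, 57.6% of the 50-base windows also occur in Oas1g, itself at 1.77 ± 0.351 TPM, so part of its count may be shared.

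The Oas-like genes are relatives of the synthetases, Oasl1 without their enzyme activity. Oasl1 had 9.26, 2.93 and 3.31 TPM in libraries 1 to 3. Oasl2 had 31.9, 8.84 and 9.36 TPM. Both followed the Mx1 pattern, with library 1 high and libraries 2 and 3 close together, and ratios of 2.68 and 3.39 for Oasl1 and Oasl2. Only 18.2 ± 4.99% of Oasl2 TPM was assigned to protein-coding transcripts, while Oasl2-205, annotated for nonsense-mediated decay, took 42.3 ± 3.12%.

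The sensors of foreign nucleic acid among the members varied less. Ddx58, which encodes RIG-I, averaged 68.7 ± 9.02 TPM, its relative Dhx58 (LGP2) 28.8 ± 7.11 TPM and Ifih1 (MDA5) 16.3 ± 1.59 TPM. Zbp1, the sensor of left-handed nucleic acid that can trigger necroptosis, averaged 150 ± 31.4 TPM and was the second highest type I type gene. Each of these 4 was highest in library 1, with ratios between 1.30 and 1.49. Eif2ak2, the kinase PKR that stops translation, averaged 17.7 ± 5.92 TPM, with 24.3 TPM in library 1 and 12.9 TPM in library 2. Its counts moved less than its TPM, by 0.26 on the log2 scale between libraries 1 and 2, and its coding transcript Eif2ak2-201 took 50.1% of the gene's TPM in library 1 and 86.9% in library 2.

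Among genes that act on nucleotides and viral replication, Rsad2 and Cmpk2 are neighbours on chromosome 12 and work together, Rsad2 (viperin) making a chain-ending nucleotide from the product of Cmpk2. Rsad2 had 8.88, 6.67 and 2.30 TPM in libraries 1 to 3, with a ratio of 4.30. Cmpk2 averaged 13.8 ± 5.20 TPM with a ratio of 2.04. Both were lowest in library 3, the pattern of Ifit1, Ifit3 and Ifit3b. Samhd1, a mixed member that breaks down nucleotides, was among the 5 highest members and had 618, 528 and 476 TPM, with a ratio of 1.20. Its log2 ratio of library 1 over 2 was 0.20 from expected counts and -0.06 in the second deposited count table.

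Of the remaining type I type genes, Ifi27l2a, which encodes a small mitochondrial protein, was the second highest member of all, with 1475, 1021 and 940.0 TPM in libraries 1 to 3. Ifi44, whose product is linked to antiviral and antiproliferative effects, lay far below it at 13.6, 4.22 and 4.36 TPM. The ratio of Ifi44 was 4.08, with library 1 high and the others close together, against 1.44 for Ifi27l2a. Rtp4, a chaperone-like protein, averaged 99.3 ± 23.4 TPM and Xaf1, a pro-apoptotic factor, 77.7 ± 18.0 TPM, both highest in library 1.

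The Irg GTPases, which coat the vacuoles of intracellular parasites, were abundant in every library, Irgm2 least so. Igtp (Irgm3) had 379, 341 and 316 TPM in libraries 1 to 3. Irgm1, which regulates the others, had 138, 124 and 108 TPM, and Iigp1, an effector, had 177, 138 and 124 TPM. Library 1 was highest for each, and the TMM-scaled ratios were 1.10, 1.17 and 1.30 for Igtp, Irgm1 and Iigp1. The direction of Igtp turned in the second deposited count table, with a log2 ratio of library 1 over 2 of -0.08 against 0.12 from expected counts, and that of Ifi47 turned likewise, at -0.08 against 0.10. Ifi47, at 374 ± 32.2 TPM, was the highest GTPase, and Irgm2, at 44.8 ± 3.48 TPM, the lowest of the Irg genes. Igtp and Irgm2 overlap on the same strand by 7974 bases, and 12.3% of the 50-base windows of Igtp also occur in Irgm2.

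The guanylate-binding proteins (Gbp), which lyse such vacuoles and feed inflammasomes, completed the class. Gbp2 had 96.9, 78.7 and 81.1 TPM in libraries 1 to 3, with a ratio of 1.21. Gbp7 averaged 166 ± 26.5 TPM, Gbp3 103 ± 22.2 TPM and Gbp5 40.3 ± 2.21 TPM, all in 1 cluster with Gbp2 on chromosome 3. Gbp6, on chromosome 5, averaged 188 ± 37.6 TPM, but 90.2% of its 50-base windows also occur in Gm43302, so its level may hold reads of that gene. Gbp5 was the one GTPase whose libraries did not differ past the threshold (adjusted p = 0.0763, chi-square test), with 39.8, 42.7 and 38.4 TPM.

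Ly6e, Ly6a, Bst2 and Ifitm3 are the surface and membrane proteins among the mixed members, and they include the highest and the lowest of that class. Ly6e, a lipid-anchored protein that restricts coronavirus entry, was the highest member, with 3389, 3341 and 2888 TPM in libraries 1 to 3. Ly6a (Sca-1), a marker of activated T cells in the mouse, had 812, 455 and 446 TPM, high in library 1 alone. That difference was not found in the second deposited count table, where Ly6a had 696, 649 and 662 reads and a log2 ratio of library 1 over 2 of -0.03, against 0.81 from expected counts. Ifi27l2a behaved likewise, at -0.02 in the second table against 0.50. Counts in that table were compressed for abundant genes, since Ly6e had 1119, 1131 and 1110 reads there against 80311, 69798 and 74945 expected counts. Bst2 (tetherin), which holds budding virus at the cell surface, averaged 108 ± 17.3 TPM, and Ifitm3, which blocks fusion in endosomes, had only 4.10, 2.67 and 2.87 TPM. The libraries did not differ past the threshold for Ifitm3 (adjusted p = 0.167, chi-square test) at 56.9, 32.6 and 43.4 expected counts.

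The other mixed members act in the nucleus and in ubiquitin and ADP-ribose signalling. Sp100, a scaffold of nuclear bodies, had 642, 693 and 592 TPM in libraries 1 to 3, the third highest level among members. Parp14 averaged 73.7 ± 2.93 TPM, and Parp9 and Dtx3l, whose products form a complex, averaged 72.0 ± 9.74 and 55.4 ± 4.48 TPM. These 3 neighbours on chromosome 16 had mean levels within a 1.33-fold range. Parp9 and Dtx3l overlap on opposite strands by 682 bases, and the use of strand in counting is not given, so reads there may be shared. Ifi203, a DNA-binding protein of the same family as Mndal, averaged 308 ± 46.7 TPM, of which 58.1 ± 3.65% lay in a transcript annotated as non-coding. Ifi203 and Mndal overlap on the same strand by 22085 bases. Of the 50-base windows of that transcript, 14.2% also occur in Mndal, so the split of reads between the 2 genes is uncertain. Trim30a averaged 50.3 ± 6.30 TPM and Ifi35 149 ± 2.94 TPM, and Ifi35 was the one member highest in library 3.

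Members were also set in order of level. Of 45 neighbouring pairs in the order of mean TPM, 4 had ranges over the libraries and authors' TPM intervals that did not overlap. Those 4 were Ly6e above Ifi27l2a, Ifi27l2a above Sp100, Samhd1 above Ifi47, and Ifi203 above Gbp6. In a further 4 pairs the ranges overlapped but the intervals were apart, with 1 sign, in every library: Ifi47 above Igtp, Igtp above Ifi203, Iigp1 above Irgm1, and Dhx58 above Ifit2. The order of the 2 genes was the same in all libraries for 16 of the 45 pairs. The level that the authors' intervals stand for is not stated.

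The libraries were then set against each other. Expected counts differed between the 3 libraries by more than counting noise for 44 of 46 members, against 77.2% of the 18253 genes tested, so at this depth most genes of any kind pass. The 2 members that did not were Gbp5 and Ifitm3. Among members with a mean count of 1000 or more 34 of 35 passed, against 84.8% of genes, and with 100 to 1000 all 9 did, against 79.2%. The size of the spread was uneven over the classes. The highest library was at least 2-fold above the lowest, after TMM scaling, for 11 of 46 members (23.9%), which is close to the 27.1% of all genes tested. All 11 were type I type genes (11 of 24), against 0 of 10 GTPases and 0 of 12 mixed members. They were Ifit1, Ifit3, Ifit3b, Mx1, Mx2, Oas2, Oasl1, Oasl2, Rsad2, Cmpk2 and Ifi44. The count rested on libraries 1 and 3, as it was 4 without library 1 and 6 without library 3, and 10 without library 2.

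Depth of counting matters here, since low counts vary more. Of the 9 members with a mean count of 100 to 1000, all of the type I type, 8 had a ratio of at least 2, against 12.7% of genes of that depth. Among the 35 members with a mean count of 1000 or more, Ifit1 and Ifit3 did, against 0.475% of genes. All 10 GTPases have a mean count of 1000 or more, so the classes differ in depth as well as in spread, and at that depth 2 of 14 type I type genes had such a ratio, against 0 of 10 GTPases. The difference between the classes was not tested. Of the 2 members under 100, Mx2 passed and Ifitm3 did not, against 61.8% of genes.

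The direction was mostly 1 way. Library 1 was the highest for 38 of 46 members, against 31.8% of all genes tested: 23 of 24 type I type genes, 9 of 10 GTPases and 6 of 12 mixed members. By depth it was the highest for 27 of 35 members with a mean count of 1000 or more, against 24.4% of genes, for 9 of 9 with 100 to 1000, against 31.2%, and for 2 of 2 below, against 39.1%. Library 2 was the highest for 7 members, against 37.3% of genes, and library 3 for 1, against 30.9%. Library 1 was the lowest for 4 members, against 33.6% of genes, and library 3 for 25, against 28.3%. Set against library 2 alone, library 1 was higher for 38 members, against 49.7% of genes. Over the members the median log2 ratio was 0.35 for library 1 over 2, 0.39 for library 1 over 3 and 0.06 for library 2 over 3, while over all genes tested it lay between -0.012 and -0.001. In the type I type genes these medians were 0.54, 0.68 and 0.14, against 0.23, 0.17 and 0.003 in the GTPases and 0.03, 0.16 and 0.07 in the mixed members. All 10 GTPases averaged 1000 counts or more, and the 14 type I type genes of that depth had medians of 0.37, 0.49 and 0.19. A value at least 1.5-fold higher in library 1 than in library 2 was found for 12 members, Ly6a and 11 type I type genes, against 19.4% of genes tested, and a value at least 1.5-fold lower for 0, against 12.5%. Against library 3 it was 14 members higher, Ly6a and 13 type I type genes, against 14.7% of genes, and 0 lower, against 10.9%. These 1.5-fold shares cover genes of every depth and were not split by depth, while 35 of the 46 members averaged 1000 counts or more. Large ratios are rarer there: 0.475% of genes of that depth had a called ratio of at least 2, against 27.1% of all genes tested. Each of the pairwise ratios compares 1 library with 1 library of the same biosample and carries no p.

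**Figure D3:**
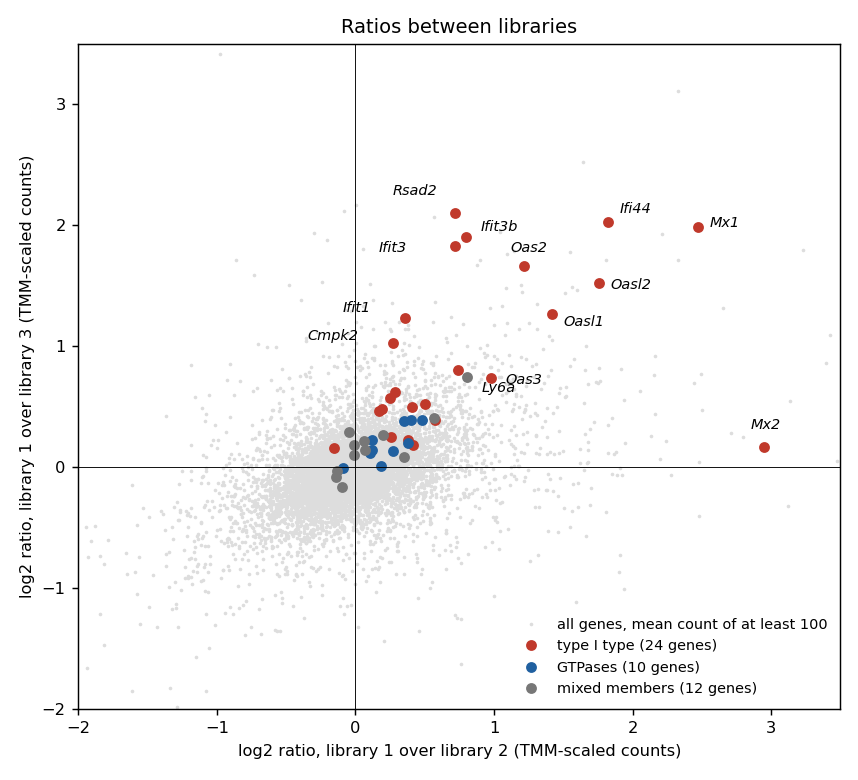
log2 ratio of TMM-scaled counts of library 1 over library 2 (horizontal) and over library 3 (vertical) for members (coloured by class) and for all genes with a mean count of 100 or more (pale grey), with genes beyond the axes not drawn. GTPases and most mixed members lie near the origin, whereas Mx1, Ifi44 and Oasl2 lie to the upper right, Rsad2, Ifit3 and Ifit3b lie high, and Mx2 lies far right at a log2 ratio of 0.17 over library 3. The axes share library 1, so a slope between them is not a result.

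Library 1 was at least 1.5-fold above both others for 11 members, Ly6a and 10 type I type genes, against 8.26% of genes tested, a share over genes of every depth. Within the type I type genes 2 patterns can be described, chosen after the values were seen. Mx1, Ifi44, Oasl1, Oasl2, Oas2, Oas3 and Isg15 were high in library 1 and less than 1.5-fold apart between libraries 2 and 3. Ifit1, Ifit3, Ifit3b, Rsad2 and Cmpk2 were at least 1.5-fold higher in library 2 than in library 3. These 5 were the only members to be so (10.9%), against 13.1% of all genes tested. That share covers genes of every depth and was not split by depth. The 5 averaged from 316 counts (Ifit3b) to 2004 counts (Ifit1), so whether they stand out from genes of like depth was not tested. Mx2 stood alone in being at least 1.5-fold lower in library 2 than in both others, which 13.5% of genes tested were.

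Markers of other cells were low but not equal between the libraries. The 6 myeloid markers summed to 3.96, 2.45 and 4.45 TPM in libraries 1 to 3, with 1 of 6 detected and Fcgr1 at 0. The 4 plasmacytoid dendritic cell markers summed to 3.19, 3.21 and 3.76 TPM, nearly all of it Ccr9, which T cells also express, with Cox6a2 and Klk1 at 0 in libraries 1 and 2 and Siglech at 0 in library 2. The 4 B cell markers summed to 55.6, 60.3 and 53.2 TPM, all 4 detected. The 4 NK cell markers summed to 2.44, 2.88 and 3.32 TPM and the 2 CD8 T cell markers to 19.4, 26.5 and 16.9 TPM. These sums hide wider spreads of 1 marker in each list, with scaled ratios of 5.05 for Eomes and 4.16 for Cd8a. In libraries 1 to 3 Eomes had 51, 14.01 and 82.11 expected counts and Cd8a 67.07, 129 and 36.04. Single markers differed in direction. Itgam had 32, 1 and 17 expected counts and Cd68 45, 34 and 34 in libraries 1 to 3, both highest in library 1. Lyz2 had 40, 18 and 58.86 expected counts and Csf1r 7, 3 and 42.35, both highest in library 3. The median log2 ratio of the myeloid markers tested was 0.92 for library 1 over 2 and -0.08 for library 1 over 3. Their part in the ratios of the members was not tested. TMM scaling was computed over all 3 libraries. With library 3 left out, the median log2 ratio of library 1 over 2 over the members was 0.35. The part of the salivary gland transcripts in the ratios of the members was not tested.

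The deposited data hold a second quantification, whole-number counts against the older annotation M4. There 44 of the 46 members were matched by identifier, with no match for Gbp5 and Gbp6, and 33 of the 44 differed between libraries, against 52.1% of genes in that table. A called ratio of at least 2 was found for 10 of them, against 13.6% of genes. The sign of the ratio of library 1 over 2 differed from that of expected counts for 6 members: Ifi27l2a, Ly6a, Samhd1, Ifi47, Igtp and Bst2. The median log2 ratio of library 1 over 2 was 0.48 in the type I type genes, against 0.15 in the GTPases. Over all members it was 0.19 in place of 0.35. Counts in this table were compressed for abundant genes, as shown for Ly6e. Among the GTPases, Igtp had 2343, 2262 and 2318 reads there in libraries 1 to 3, against 16147.5, 12853.3 and 14685.5 expected counts. The part of this compression in the class medians and in the sign changes was not tested.

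**Figure D4:**
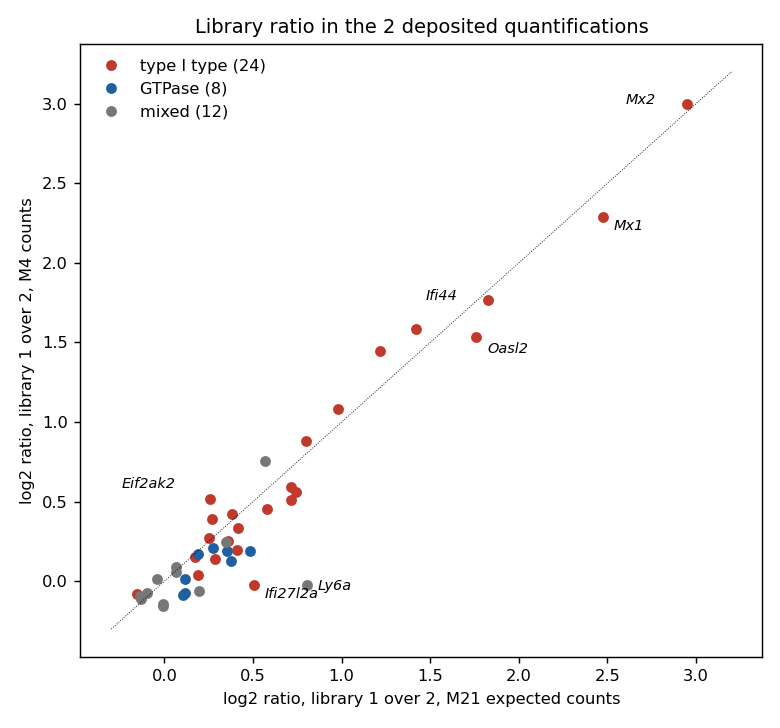
log2 ratio of library 1 over library 2 for the members from M21 expected counts (horizontal) and from M4 counts (vertical), coloured by class, with the dotted line marking equal values. Mx2, Mx1, Ifi44 and Oasl2 keep large ratios on both axes, while Ly6a and Ifi27l2a lie on the right at about 0 on the vertical axis.

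The genes upstream of the response were read next. Of 21 interferon genes, 2 were detected and 12 were listed at 0 in every library. Ifng, which encodes interferon gamma, had 11.3, 6.25 and 14.3 TPM in libraries 1 to 3, with a ratio of 2.44 (adjusted p = 5.95e-19, chi-square test). Ifng was highest in library 3, while library 1 was highest for 9 of 10 GTPases. A link between Ifng and the GTPases was not tested. Ifnz, a type I interferon gene, averaged 1.30 ± 0.218 TPM. Ifnb1 had 4, 0 and 4 expected counts, where a count of 0 allows up to 3, so a difference between libraries was not detectable at this depth.

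Receptors and kinases were present for both main classes: 8 of 9 were detected, all but Ifnlr1 of the lambda receptor. Jak1 averaged 449 ± 32.4 TPM, Ifngr1 391.7 ± 118 TPM, Il10rb 140 ± 7.42 TPM and Ifnar2 118 ± 6.92 TPM. All 8 differed between the libraries past the threshold, as most genes do. None had a ratio of 2, but all 8 had a mean count of 1000 or more. At that depth only 0.475% of genes had such a ratio, against 27.1% of all genes tested. Ifngr1 was highest in library 1, with a ratio of 1.64, and 5 of the 8 were highest in library 2.

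The transcription factors were all detected (8 of 8), each with a mean count of 1000 or more. Of the 8, 7 differed between libraries, near the 84.8% of genes of that depth. None had a ratio of 2, which only 0.475% of genes of that depth had. Irf1, which interferon gamma induces, had 346, 356 and 332 TPM in libraries 1 to 3, and Irf9, the DNA-binding part of the type I complex, had 182, 160 and 145 TPM. Their ratios were 1.04 for Irf1 and 1.11 for Irf9. Irf7, the factor that amplifies the type I response and is itself induced by it, had 136, 108 and 73.9 TPM with a ratio of 1.77. Library 1 was highest and library 3 lowest for Irf7, as for Rsad2 and Ifit1. Irf3 averaged 199 ± 17.1 TPM.

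Negative regulators were detected in 8 of 8 cases, led by Ptpn6 at 277 ± 28.8 TPM and Socs1, an induced inhibitor of the kinases, at 123 ± 7.90 TPM. All 8 had a mean count of 1000 or more. All 8 differed between libraries, against 77.2% of all genes tested and 84.8% of genes of that depth. None was highest in library 1, against 31.8% of all genes tested and 24.4% of genes of that depth. Their median log2 ratio of library 1 over 2 was -0.18. Sensors upstream of interferon were detected in 8 of 11 cases, led by Tmem173 (STING) at 428 ± 28.1 TPM, and 3 of the 9 tested were highest in library 1, close to the share over all genes.

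Other interferon-inducible genes gave a wider view. Of 49 listed genes 48 were found by symbol and 42 were detected, with Psmb8, a subunit of the immunoproteasome, leading at 1088 ± 58.5 TPM, followed by Slfn2 at 506 ± 16.5 TPM, Psmb9 at 484 ± 51.5 TPM and Mndal at 378 ± 54.7 TPM. Of 44 tested, 41 differed between libraries, against 77.2% of all genes tested, and 30 were highest in library 1, against 31.8% of all genes tested. Their median log2 ratios were 0.18 for library 1 over 2 and 0.21 for library 1 over 3, near those of the GTPases. A ratio of at least 2 was called for 2 of 44, Ifi204 and Oas1c, against 27.1% of all genes tested. Most of the 44 had a mean count of 1000 or more, where 0.475% of genes had such a ratio. Ifi204 averaged 31.9 counts, and 61.8% of genes with 10 to 100 counts had such a ratio.

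**Figure D5:**
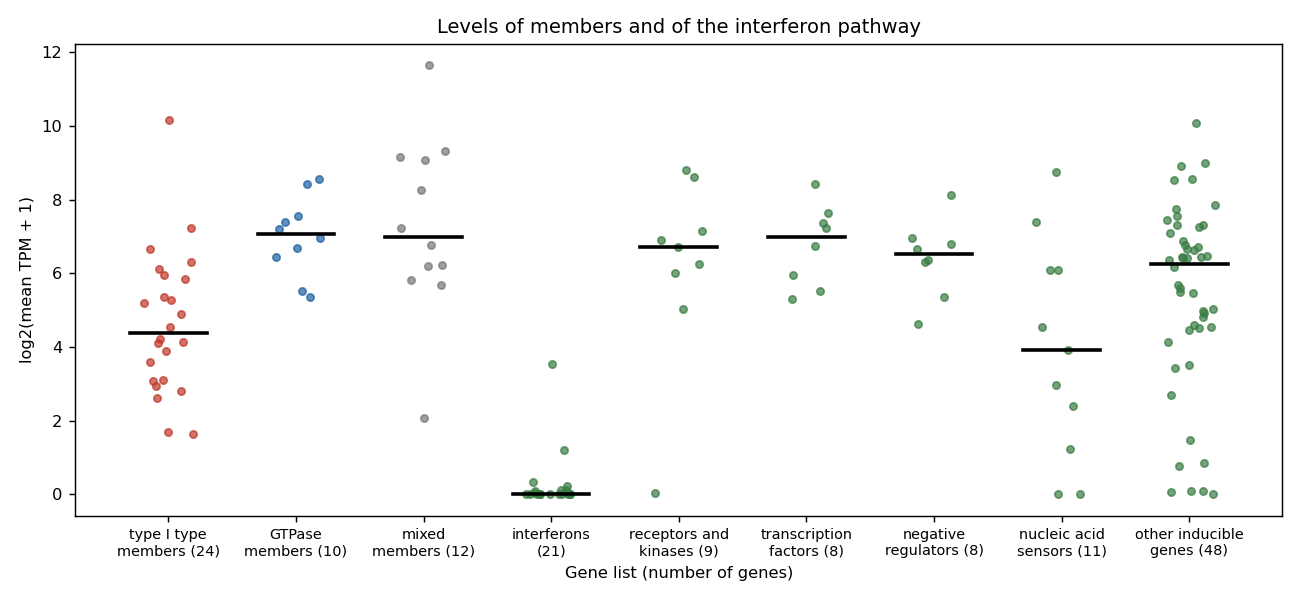
Mean level over the 3 libraries as log2(mean TPM + 1) for each gene of the member classes (left) and of the pathway lists (green), with a bar at the list median. Interferon genes lie at or near 0 apart from Ifng and Ifnz, while receptors, transcription factors and negative regulators lie near the level of the GTPases, above the type I type median.

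The leading transcript was protein-coding in 41 of 46 members. Only 1 transcript is annotated for 7 members. Of the 39 members with more, 33 had the same leading transcript in each library, though its share could move, as for Ifi44-201 at 77.7%, 81.1% and 47.4% in libraries 1 to 3. In all, 26 members had over 90% of their TPM in protein-coding transcripts. Under 50% of the TPM lay in protein-coding transcripts for 5 members: Mx1, Mx2, Oasl2, Parp14 and Ifi203. In Parp14 the retained-intron transcript Parp14-202 took 49.8 ± 3.13% and the coding transcript Parp14-201 took 48.4 ± 2.49%. These shares are the authors' estimates, in sequence that transcripts of 1 gene share. Of the members, 18 had no 50-base window in common with another gene, and 9 had over 10% of theirs in common: Gbp6, Oas1a, Ifit3, Ifit3b, Ifi203, Igtp, Parp14, Sp100 and Ifitm3.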

How the data were processed

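Polyadenylated RNA of mouse Tregs was sequenced in 3 libraries of 1 biosample. Per the file headers, the deposited gene tables hold expected counts, posterior mean counts, TPM with intervals of unstated level, and FPKM, on annotation M21 (mm10). Deposited transcript tables give each transcript's percent of its gene's TPM, per the file headers. A second deposited table per library holds whole-number counts on annotation M4. The aligner, the counting program and the use of strand are not given in the sources used here. Rows that name no gene took 0.170%, 0.170% and 0.218% of expected counts and stayed out. Gene totals were 35592206, 31611422 and 37728241.

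The members and lists were chosen with earlier results of these data known. Detection means a TPM of 1 or more in each library. For tests, rounded expected counts were scaled by TMM, the trimmed mean of M values (edgeR 4.0.16, R 4.3.3). The 3 scaled counts of a gene were compared with Poisson noise by chi-square for the 18253 genes averaging 10 counts or more, with Benjamini-Hochberg adjustment over all of them at 0.05. The test compares libraries, not conditions, and was tested on simulated data. The log2 ratios between 2 libraries use scaled counts plus 0.5. The ratio between the highest and the lowest library uses scaled counts with nothing added. DESeq2 1.42.0 size factors were an alternative. All members are named by role; per-library values are given for the 5 highest, the 3 lowest, the 10 with the largest ratio at a mean count of at least 50 and a preset list, and other lists give up to 4 leading genes. A gene that the rule covers is not reported here. Shared sequence was counted in 50-base windows of the M21 transcripts. Promoters are RefSeq's (GRCm38.p6). Python 3.11.15 with scipy 1.17.1, pandas 2.3.3, numpy 2.4.6 and matplotlib 3.10.9 did the rest.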

Additional observations from a re-analysis of the deposited data

How the results depend on the processing

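Of the recomputed values that answer a comparison, 113 stayed within tolerance and 14 moved, where tolerance is 1.5 times for a count and 1 SD between libraries for a median or difference. Values within it still shifted, such as the members that differ, which were 30 without library 1 and 33 with M4 counts. Of single members' values 15 crossed a 1.5-fold ratio or moved by over 1 SD, and 1 at least 1.5-fold changed sign. Counting ratios of any size, 6, 2 and 5 members changed sign with M4 counts for library 1 over 2, 1 over 3 and 2 over 3. Scaling by total count moved the mixed members' median log2 ratio to 0.069 for library 1 over 2, 0.24 for 1 over 3 and 0.11 for 2 over 3. With M4 counts the median over all members was 0.19 for library 1 over 2 and 0.19 for 1 over 3, and that of the mixed members -0.045 and 0.055. A mean count of at least 50 gave the mixed members -0.0095 for library 1 over 2. The log2 ratio of Ly6a for library 1 over 2 reversed to -0.027 with M4 counts. Type I type minus GTPase was -2.44 with detected members only, -2.18 with M4 counts per kilobase and -1.55 with mixed members added. GAS in its strict form was found in 4 members. The cause of these shifts was not tested. Leaving out 1 library at a time gave 4 to 10 members with a ratio of at least 2, 30 to 42 that differed, 38 to 42 highest in library 1, 45 to 46 detected, and -2.72 to -2.57 for type I type minus GTPase. No paired analysis was possible because all libraries form 1 group.

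With 1 biosample, nothing here measures variation between mice or any effect of inflammation. TPM shares 1 total per library, so the gland transcripts of library 3 lower its other values. Genes with few counts, such as Mx2 and Ifitm3, are imprecise, and the split of reads between near copies is uncertain.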

Other observations

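Some interferon-linked genes outside the members are given here, picked after their values were seen. Ifi204, a DNA sensor of the family of Ifi203, had 1.67, 0.17 and 0.25 TPM in libraries 1 to 3, with 79.0, 5.21 and 11.4 expected counts. Tlr3, the endosomal sensor of double-stranded RNA, had 3.06, 0.30 and 0.61 TPM, with 93, 9 and 7 expected counts. Both were high in library 1 and low in libraries 2 and 3, the pattern of Mx1, and both passed the chi-square test of the libraries with scaled ratios of 13.6 and 13.3 for Ifi204 and Tlr3, wider than for any member. Oas1c, a neighbour of Oas1a, was low in library 2 alone, at 12.9, 4.97 and 11.4 TPM, as Mx2 was. The myeloid marker Itgam had 32, 1 and 17 expected counts, likewise lowest in library 2, and its part in these values was not tested. Cxcl10, a chemokine that interferon gamma induces, did not share the members' direction, with 18.4, 33.8 and 17.6 TPM and library 2 highest.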
